A study of Mus musculus with 15 samples.

Results

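The integrated stress response and amino acid genes were followed as 36 named genes of the 57132 genes in the tables. They were chosen by gene symbol from knowledge of the pathway, with earlier results of these data known. Counts of members set beside shares of all genes are therefore descriptive. The 36 comprise 8 transcription factors, 9 effectors and feedback genes, 11 enzymes of amino acid and one-carbon metabolism, and 8 amino acid transporters. All 36 symbols were found, and all 36 passed the filter on low signal in each of the 4 comparisons. A second row with the symbol Ddit3 held 0 reads in all 15 libraries and was not used.

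The data are mRNA libraries of mouse podocytes, cells whose foot processes wrap the filtering capillaries of the kidney glomerulus, 15 in 5 groups of 3. Col4a3, deleted here, encodes a chain of the collagen IV network of the glomerular basement membrane, and its loss is a mouse model of Alport syndrome. The groups were Col4a3+/+ cells with vehicle, Col4a3-/- cells with vehicle in the same table, a further vehicle set of Col4a3-/- cells tabulated with the treated ones, Col4a3-/- cells given apolipoprotein M (ApoM), and Col4a3-/- cells given CYM50358. ApoM is a plasma protein that carries sphingosine-1-phosphate, CYM50358 blocks S1PR4, a receptor for that lipid, and both treatments lasted 24 h. The treated cells and their controls thus all lack Col4a3, and the question put to them was how supplying ApoM or blocking S1PR4 changes the knockout cells. Neither the vehicle nor the doses are given in the sources used here, nor how many clones or cultures stand behind the 3 libraries of a group, so the p-values here reflect library-to-library spread that may be technical.

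In the integrated stress response, kinases that sense amino acid shortage, misfolded protein, haem shortage or double-stranded RNA phosphorylate the translation factor eIF2. Most protein synthesis then slows, while translation of the transcription factor ATF4 increases. ATF4 forms dimers with C/EBP-family partners and induces genes for serine, asparagine and proline synthesis, mitochondrial folate enzymes, amino acid transporters and tRNA synthetases, and also feedback genes that restore translation or restrain mTORC1. ATF4 is controlled in large part at translation, so the level of its messenger RNA is only a partial readout of its activity.

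ATF4 dimers bind composite C/EBP-ATF elements, for which the letters TGATGNAA are a common summary; in the human asparagine synthetase gene such an element mediates the response to amino acid shortage. These letters were searched on both strands in the 250 bases before each start in RefSeq's promoter table (build GRCm38.p6, not the mm39 build of the expression tables). Of the 31 members with a promoter in that table, 7 held the letters (22.6%), against 3.91% of all 27025 genes there. By role, they were found in 3 of 8 transcription factors, 2 of 9 effectors, 2 of 9 enzymes and 0 of 5 transporters that could be searched. Asns (chr6:7693210-7693252, minus strand) was called between the treatments, and its match lies 16 to 23 bases before the start; the other 6, of which Chac1 and Pycr1 were called there with the replicate number as a block, were added after the matches were seen, so that the sites can be compared. Each stretch is printed in the direction of its gene with the match in capitals, and TTGCATCA is the same motif on the opposite strand. A match describes the letters only, and binding was not measured.
Asns: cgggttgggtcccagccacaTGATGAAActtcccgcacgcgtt
Jdp2: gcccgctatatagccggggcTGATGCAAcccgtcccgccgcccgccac
Pycr1: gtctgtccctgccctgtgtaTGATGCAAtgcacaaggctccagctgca
Atf3: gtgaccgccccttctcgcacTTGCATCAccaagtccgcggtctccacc
Chac1: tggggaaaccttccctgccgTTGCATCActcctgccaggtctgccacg
Nupr1: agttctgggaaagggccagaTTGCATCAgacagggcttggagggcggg
Vldlr: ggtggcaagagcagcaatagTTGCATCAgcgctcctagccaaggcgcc
The stretch of Asns is shorter since it ends at the start of the gene. The others are at chr12:85599363-85599410 (plus strand), chr11:120643824-120643871 (minus), chr1:191183416-191183463 (minus), chr2:119351029-119351076 (plus), chr7:126625553-126625600 (minus) and chr19:27216800-27216847 (plus).

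Library totals were 45417221 to 83166742 recovered reads, and values are given as signal, which is the authors' scaled CPM (reads divided by library size, times a further factor). The lowest member value, 3.07 for Atf3 in wild-type replicate 3, stands for 142 reads. Counting error, as 100 over the root of the mean reads, had a median of 1.75% over the 180 pairs of a member and a group, against 8.18% for the spread between libraries, and was at or above that spread in 9 of the pairs. Col4a3 itself read 938 to 1268 in the wild-type libraries, 60.9 to 81.8 in the knockout libraries of the same table, and 13.5 to 24.4 over the other 9 knockout libraries, in the direction of the labels. Of 21 podocyte markers, Tcf21 was at 0 in all groups and Nphs1 stayed under 0.5, while Synpo was present at 302 to 802 as group means. In bulk RNA, fewer cells of a type and less RNA per cell cannot be told apart. Among the 3 wild-type libraries, replicate 1 was the lowest for 21 of the 36 members and replicate 2 the highest for 23, and in the vehicle set of the treated cells replicate 3 was the lowest for 24 and replicate 2 the highest for 24.

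**Figure D1:**
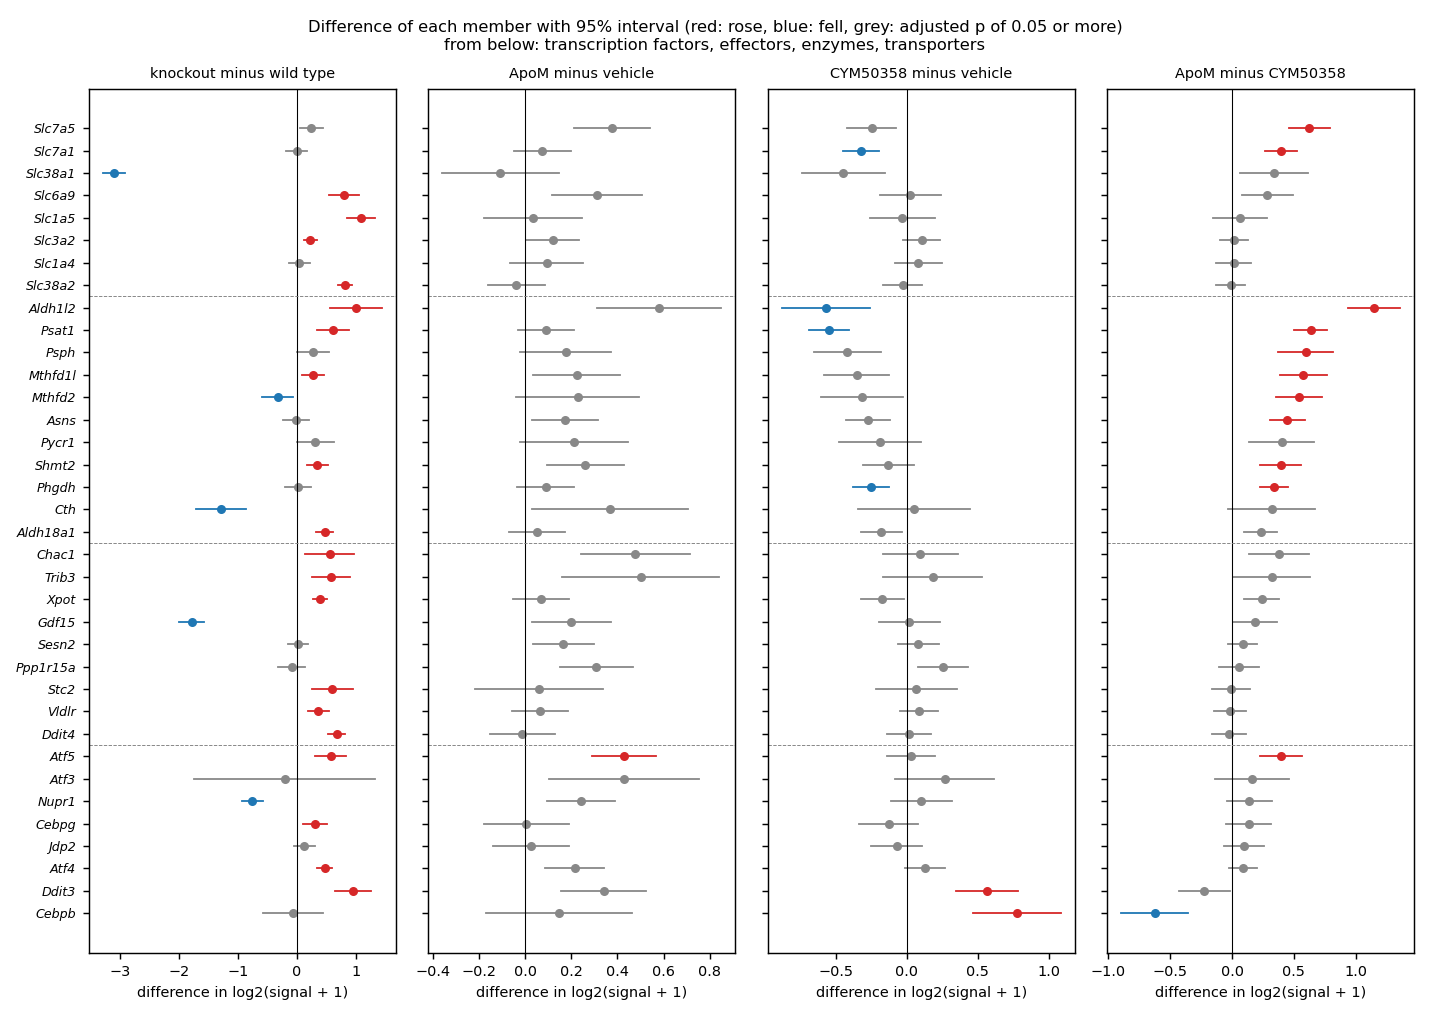
Difference of each of the 36 members in the 4 comparisons, in log2(signal + 1), with its 95% interval from limma; colour marks a call at an adjusted p under 0.05 and the horizontal axes differ between panels. Rises outnumber falls between the genotypes (19 against 5), and nearly all points lie right of 0 for ApoM (33 of 36). For CYM50358 the called enzymes fell and the called stress factors rose.

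The Col4a3-/- cells held more transcript of most of these genes than the wild-type cells, but with marked exceptions. Of the 36 members, 19 rose, 5 fell and 12 did not pass the test (limma on log2(signal + 1), adjusted p under 0.05 over 14313 genes). The background was large: 44.7% of all genes tested were called, 22.6% as risen and 22% as fallen. The median member difference was 0.29 on the log2 scale, against 0.0029 over all genes tested. Rises were counted for 4 of 8 transcription factors, 6 of 9 effectors, 5 of 11 enzymes and 4 of 8 transporters, and falls for 1, 1, 2 and 1 of them. The groups did not overlap for 20 members with knockout higher and 5 with knockout lower, beside 55.8% of all genes in either direction (27.9% higher and 27.8% lower).

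Atf4 (chr15:80139385-80141742, mm39), the central transcription factor of the response, had a signal of 169.9, 182 and 163 in the wild-type libraries and 238, 247 and 226 in the knockout ones. All 3 knockout libraries lay above all 3 wild-type libraries (log2 fold change 0.46, SE 0.060, adjusted p = 0.000288). Ddit3 (chr10:127126643-127132157), which encodes the pro-apoptotic factor CHOP, went from 11.04, 16.5 and 13.5 to 27.6, 29.8 and 23.9. Again the groups did not overlap (log2 fold change 0.95, SE 0.14, adjusted p = 0.000553). Atf5 (chr7:44461680-44466082), a close relative of Atf4 that is likewise controlled at translation, read 49.8, 67.7 and 71.1 and then 92.8, 96.8 and 89.2. The wild-type spread came from the low replicate 1, and the knockout libraries stood clear of it (log2 fold change 0.57, SE 0.12, adjusted p = 0.00365). Cebpg, a dimer partner of ATF4, also rose (0.30), though it missed the threshold without wild-type replicate 2 or without knockout replicate 2 or 3 (adjusted p = 0.0801, 0.0913 and 0.0922, range over all alternatives 0.00668 to 0.0922). Nupr1 (chr7:126222421-126230033), a small stress-induced chromatin regulator, went the other way, from 222, 199 and 212 to 139.9, 117 and 118. All its knockout libraries were below all wild-type ones (log2 fold change -0.76, SE 0.078, adjusted p = 7.30e-05).

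Atf3, an early stress-induced repressor, could not be placed, since 1 library decided its sign. It read 34.7, 4.92 and 3.07 in the wild-type libraries and 11.5, 6.02 and 5.34 in the knockout libraries. Wild-type replicate 1 was far above the other 5 libraries (log2 fold change -0.21, SE 0.68, adjusted p = 0.827); without it the difference was 0.75 with an adjusted p of 0.0366 (range over all alternatives 0.0366 to 0.989). Cebpb showed the same high library, with 20.7, 11.5 and 9.55 in wild type and 11.98, 11.999 and 13.8 in knockout, and no call (log2 fold change -0.065, SE 0.23, adjusted p = 0.838). Jdp2, a repressor of AP-1 sites, did not pass either (0.12).

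Among the effectors, the restrainer of mTORC1 Ddit4 (chr10:59785491-59787656) rose from 64.6, 70.3 and 66.9 to 109, 99.9 and 114. The groups were far apart for their small spread (log2 fold change 0.67, SE 0.063, adjusted p = 4.23e-05). Stc2, a secreted glycoprotein (0.60), Trib3, a pseudokinase that feeds back on ATF4 (0.58), Chac1, which degrades glutathione (0.55), Xpot, the nuclear exporter of tRNA (0.39), and the lipoprotein receptor gene Vldlr (0.36) rose too. Chac1 rested on knockout replicate 1, at 16.6 against 10.5 and 9.46, and its adjusted p was 0.0778 without that library (log2 fold change 0.32), 0.0559 without wild-type replicate 1 and 0.0862 without wild-type replicate 3 (range over all alternatives 0.00623 to 0.1003). Gdf15 (chr8:71082043-71085106), a secreted stress cytokine, was the exception, with 888, 773 and 789 in wild type and 268, 236 and 208 in knockout. Its highest knockout library was far below its lowest wild-type library (log2 fold change -1.78, SE 0.096, adjusted p = 1.22e-06). Sesn2, a leucine sensor, and Ppp1r15a, the subunit that directs phosphatase to eIF2, differed by 0.021 and -0.091, neither past the threshold.

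The enzymes did not move as a block. Aldh1l2 (chr10:83323314-83370004), a mitochondrial folate enzyme, read 7.81, 15.7 and 13.1 in wild type and 24.98, 23.7 and 24.7 in knockout. Its knockout libraries were tight and above all of the more spread wild-type ones (log2 fold change 0.99, SE 0.20, adjusted p = 0.00316). Psat1, the aminotransferase of serine synthesis, rose by 0.61, Aldh18a1 of proline synthesis by 0.47, and the mitochondrial Shmt2 and Mthfd1l by 0.34 and 0.27. Cth (chr3:157599885-157630714), which makes cysteine from cystathionine, fell from 11.7, 20.9 and 20.4 to 6.22, 6.33 and 6.68. The wild-type values were spread, with replicate 1 low, yet all lay above the knockout values (log2 fold change -1.29, SE 0.19, adjusted p = 0.000601). Mthfd2, of the same mitochondrial folate route as Shmt2, went from 35.3, 46.8 and 35.1 to 29.3, 28.8 and 34.0. Its groups were separate by a narrow gap (log2 fold change -0.33, SE 0.12, adjusted p = 0.0428). Mthfd2 missed the threshold when wild-type replicate 2 (log2 fold change -0.20, adjusted p = 0.122) or knockout replicate 1 or 2 was left out (0.120 and 0.133; range over all alternatives 0.0151 to 0.301), and Mthfd1l did without wild-type replicate 1 or 2 (0.0543 and 0.0655) or knockout replicate 1 or 2 (0.0725 and 0.0950). Asns and Phgdh, the first enzyme of serine synthesis, differed by -0.021 (95% interval -0.24 to 0.20) and 0.015 (-0.20 to 0.23), and Psph and Pycr1 by 0.27 and 0.31, none of them called. Without wild-type replicate 1, Asns was called as lower (-0.15, adjusted p = 0.0430, range over all alternatives 0.0430 to 0.978), and without wild-type replicate 2 Psph as higher (0.0244, range 0.0244 to 0.564).

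The transporters held both the largest rise and the largest fall among the 36. Slc1a5 (chr7:16515265-16532199), which takes up glutamine and other neutral amino acids, read 6.59, 6.99 and 5.62 in wild type and 14.4, 13.8 and 15.5 in knockout. All knockout libraries were above all wild-type ones (log2 fold change 1.08, SE 0.10, adjusted p = 4.88e-05). Slc38a2 (chr15:96585273-96597611), a sodium-coupled neutral amino acid transporter induced by amino acid shortage, rose from 199, 206 and 194 to 355, 345 and 356. Both groups were tight and well apart (log2 fold change 0.82, SE 0.051, adjusted p = 3.20e-06). Its neighbour on chromosome 15, Slc38a1 (chr15:96469299-96540794), of the same transporter family, fell from 77.2, 81.9 and 91.4 to 8.21, 9.41 and 8.83. This was the largest change of any member in the 4 comparisons, with all knockout libraries far below wild type (log2 fold change -3.10, SE 0.082, adjusted p = 1.81e-08). The glycine transporter gene Slc6a9 read 8.97, 10.8 and 10.6 and 15.9, 19.6 and 19.4. Every knockout library lay above the wild-type ones (log2 fold change 0.79, SE 0.11, adjusted p = 0.000451). Slc3a2, the heavy chain that carries Slc7a5 to the membrane, rose by 0.23, while Slc7a5 itself stood at the threshold (log2 fold change 0.24, SE 0.087, adjusted p = 0.0502) and passed it with the replicate number as a block (adjusted p = 0.0310) or without wild-type replicate 2 (0.0128), in a range over all alternatives of 0.0128 to 0.690. The same block brought Psph of serine synthesis to 0.0410, so that 26 members were called with it. All genes called with the block were 7048 against 6395 without it (25.1% as risen and 24.2% as fallen). Slc7a1 and Slc1a4 differed by -0.0020 (95% interval -0.18 to 0.17) and 0.040 (-0.13 to 0.21).

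Whole chromosomes were shifted between the genotypes, and the members followed this on some of them and not on others. All 6 members on chromosome 10 rose (Aldh1l2, Ddit3, Ddit4, Mthfd1l, Shmt2 and Xpot), on a chromosome where 56.9% of 693 tested genes rose and the median difference was 0.28. All 4 on chromosome 19 rose (Aldh18a1, Psat1, Slc3a2 and Vldlr), where 40.3% of 504 genes rose with a median of 0.17. Chromosome 8 was shifted as much as chromosome 10 (56.7% of 803 genes rose, median 0.28), but of its 2 members Gdf15 fell and Slc7a5 was not called. On chromosome 5, where 41.1% of 908 genes rose, neither of the 2 members was called, and on chromosome 15, where 41.5% of 568 rose, Atf4 and Slc38a2 rose and Slc38a1 fell. With the median of each chromosome subtracted, 18 members were called, 14 higher and 4 lower. All genes called in that fit were 5380 of 14313 (18% as risen and 19.6% as fallen). Mthfd1l then stood at -0.016, Xpot, Shmt2, Slc3a2 and Vldlr were no longer called (adjusted p = 0.130, 0.594, 0.334 and 0.0979), nor was Mthfd2 on chromosome 6 (0.301). Atf4, Atf5, Ddit3, Ddit4, Slc1a5, Slc38a2, Gdf15, Nupr1, Cth and Slc38a1 kept their calls. What lies behind the chromosome-wide shifts was not tested.

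Other measures moved with genotype as well. The proliferation marker Mki67 had a mean of 55.6 in wild type and 28.0 in knockout, and the 21 podocyte markers summed to 4154 to 4287 in wild type and 2341 to 2545 in knockout, with Tcf21 at 0 in both. The podocyte markers include the deleted gene Col4a3, with a mean of 1085 in wild type and 68.3 in knockout. Part of their lower sum is thus the deletion itself. Endothelial markers, 5 of 9 under 0.5 in wild type and 6 of 9 in knockout, summed to 54.3 to 65.0 and 40.6 to 45.8. Mitochondrially encoded genes took 0.88% to 1.68% of the signal in wild type, lowest in replicate 1. In knockout they took 1.30% to 2.02%, so the groups overlapped. The part of these in the member differences was not tested.

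The other genes of the pathway showed no common direction between the genotypes. Over all genes tested, 22.6% rose and 22% fell. The values below are without chromosome medians subtracted, and the part of the chromosome-wide shifts in them was not tested. Of 12 tRNA synthetases induced by ATF4, 4 rose and 0 fell, with Aars1 at 0.49, Tars1 at 0.45 and Mars1 at 0.42. The eIF2 kinases, eIF2 and eIF2B subunits and their regulators gave 2 rises and 4 falls among 17, with the eIF2 gamma subunit Eif2s3x at -0.39, Impact, an inhibitor of GCN2 activation, at -0.25, and the eIF2B subunit Eif2b5 at -0.25. Further enzymes of serine, glycine and folate metabolism gave 3 rises and 7 falls among 18, with the glycine cleavage gene Gldc at -1.60 and the cystathionine synthase Cbs at -1.47. Of 15 tested enzymes for glutamine, proline, aspartate and branched-chain amino acids, 1 rose and 7 fell, with argininosuccinate synthase Ass1 at -0.95 and Bcat1 at -0.66. Of 15 tested further transporters, 4 rose, with the cationic transporter Slc7a2 at 2.36 and Slc38a7 at 0.51, and 4 fell, with the taurine transporter Slc6a6 at -1.33. ER chaperones and XBP1 targets gave 2 rises and 4 falls among 16, with Edem1 at -0.67, Dnajc3 at -0.32 and Hsp90b1 at 0.38. Of 14 tested further ATF4 targets and mTORC1 regulators, 4 rose and 4 fell, with Sesn1 at 0.84, Tsc22d3 at 0.64 and Creb3l2 at -0.53.

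**Figure D2:**
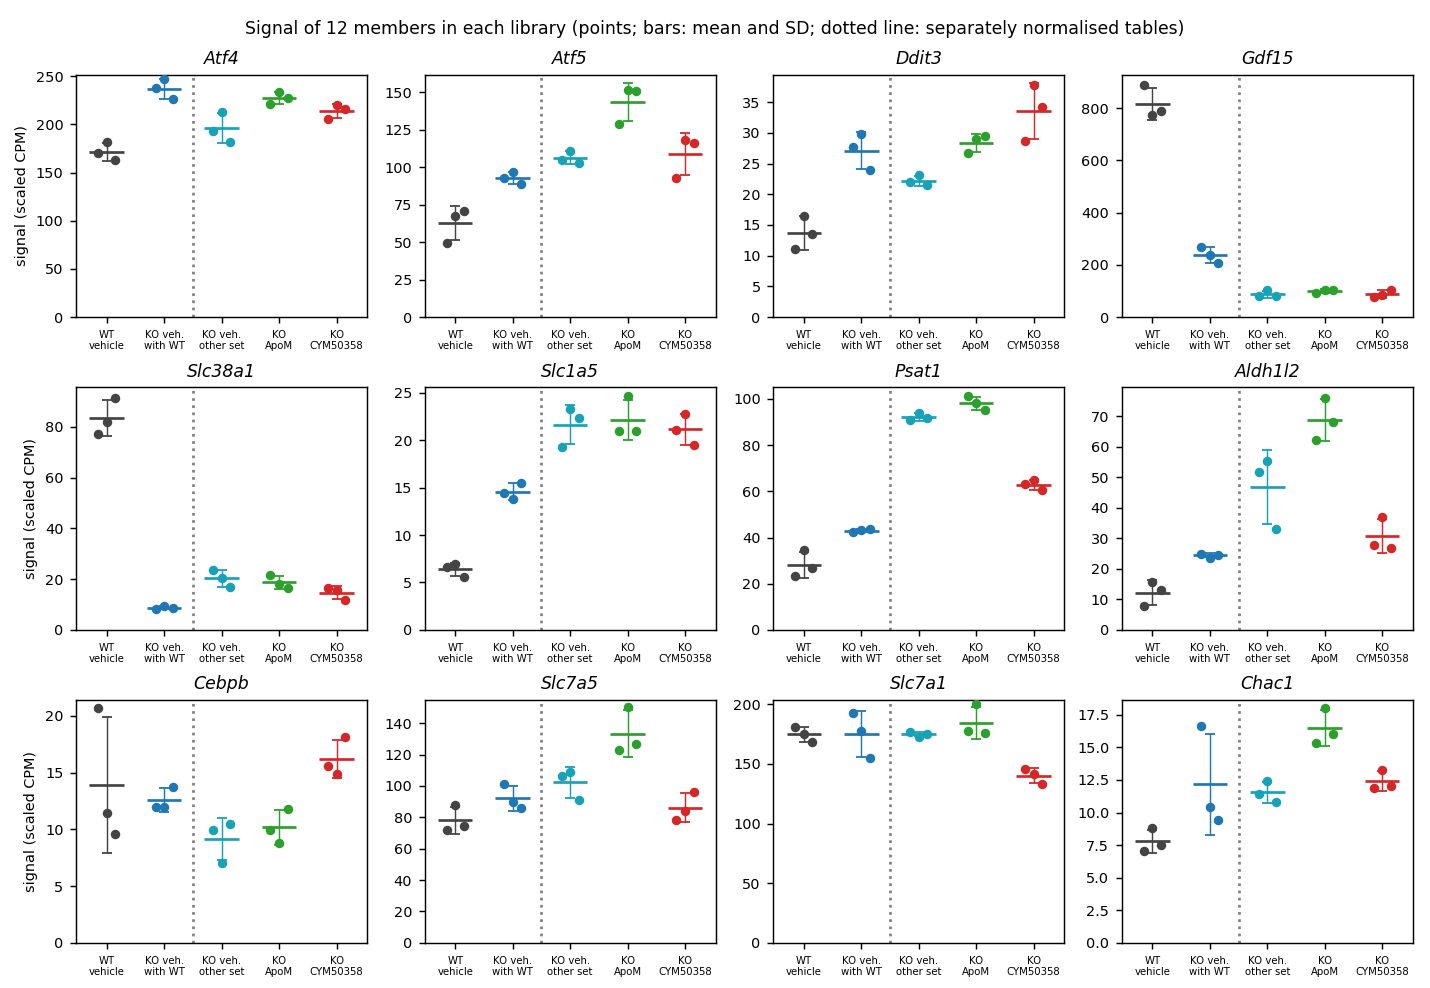
Signal of 12 members in every library, with the mean and SD of each group of 3; the dotted line separates the tables, which were normalised separately. Gdf15 and Slc38a1 are highest in wild type, Psat1 and Aldh1l2 are higher in the vehicle knockout set of the treated cells than in the set tabulated with wild type, and both are lowest among the treated cells and their controls with CYM50358.

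The 2 vehicle sets of knockout cells did not hold the same levels, so that treated cells are set only against their own. All 19 members that rose between the genotypes also had a higher mean in the second vehicle set than in wild type, and all 5 that fell had a lower one, as levels across separately normalised tables and with no test; the same held for 88.6% of all 3239 genes that rose and 93.2% of all 3156 that fell. Between the 2 knockout sets, 7.88% of 14052 genes were over 1.5-fold higher in the set of the treated cells and 12.8% lower. Of the members, 8 were so much higher: Psat1 (92.2 against 43.0), Aldh1l2 (46.7 against 24.4), Asns (103 against 65.0), Mthfd1l (27.9 against 15.3), Stc2 (79.5 against 38.3), Trib3 (9.40 against 5.59), Vldlr (114 against 55.6) and Slc38a1 (20.3 against 8.82). Gdf15 alone was as much lower (87.6 against 237). Mki67 was also lower in that set, at 4.47 against 28.0, and mitochondrially encoded genes took 2.60% to 3.18% of the signal against 1.30% to 2.02%.

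With ApoM, 1 member rose past the threshold, the transcription factor gene Atf5, and 0 fell, while 0.0434% of 13839 genes tested were called at all (0.0145% as risen). Below the threshold the members leaned one way. The difference was above 0 for 33 of 36, with a median of 0.17 on the log2 scale against -0.00099 over all genes. An unadjusted p under 0.05 was found for 18 members with higher and 0 with lower values, where 2.72% and 2.74% of all genes had one. In 15 members all 3 ApoM libraries lay above all 3 vehicle libraries and in 0 below, beside 5.45% and 5.22% of all genes. Vehicle replicate 3, the lowest of its group for 24 members, bears on these counts: without it the member median was 0.12.

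Atf5 had a signal of 105, 111 and 103 with vehicle and 129, 152 and 151 with ApoM. The lowest ApoM library stood above the highest vehicle library (log2 fold change 0.43, SE 0.067, adjusted p = 0.0126). The call was lost without either of the higher ApoM libraries, with an adjusted p of 0.348 without ApoM replicate 2 and 0.173 without replicate 3 (range over all alternatives 1.21e-05 to 0.908). Atf4 read 193, 213 and 182 and then 221, 234 and 227. Its groups did not overlap, but the difference did not pass (log2 fold change 0.22, SE 0.061, adjusted p = 0.470). Ddit3 read 22.04, 23.1 and 21.5 and 26.7, 29.04 and 29.4. Here too every ApoM library was above the vehicle range without a call (log2 fold change 0.34, SE 0.087, adjusted p = 0.436). For the remaining transcription factors the differences ran from 0.0047 (Cebpg) to 0.43 (Atf3), all 8 of them above 0.

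After Atf5, the 4 smallest p-values belonged to a transporter, an enzyme and 2 effectors, none past the threshold. Slc7a5 (chr8:122607889-122634433), the light chain of the large neutral amino acid transporter that imports leucine, read 106, 109 and 91.2 with vehicle and 123, 151 and 126 with ApoM. The groups were apart, with ApoM replicate 2 the highest (log2 fold change 0.38, SE 0.078, adjusted p = 0.183). Aldh1l2 read 51.7, 55.4 and 32.9 and 62.3, 76.0 and 68.2. No library overlapped, but vehicle replicate 3 widened its group (log2 fold change 0.58, SE 0.13, adjusted p = 0.244), and without vehicle replicate 1 Aldh1l2 passed (adjusted p = 0.0443, range over all alternatives 0.00390 to 0.9999). Without vehicle replicate 3 its difference was 0.35 and not called (adjusted p = 0.216). Chac1 read 11.4, 12.4 and 10.8 and 15.3, 18.1 and 16.04. Both groups were tight and apart (log2 fold change 0.48, SE 0.11, adjusted p = 0.371), and DESeq2 on recovered reads called Chac1 and Slc7a5 (adjusted p = 0.0230 and 0.0139, ranges over all alternatives 0.0230 to 0.9999 and 0.00393 to 0.9999). Ppp1r15a read 66.4, 65.8 and 56.8 and 71.7, 78.3 and 84.7. Its ApoM libraries again lay above the vehicle ones (log2 fold change 0.31, SE 0.075, adjusted p = 0.390).

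The other enzymes were all above 0 with ApoM, from 0.052 (Aldh18a1) to 0.37 (Cth), with 0 of 11 called. Serine synthesis gave 0.088 for Phgdh, 0.089 for Psat1 and 0.18 for Psph, with 95% intervals of -0.034 to 0.21, -0.033 to 0.21 and -0.023 to 0.37. The transporters Slc38a1 and Slc38a2 and the effector Ddit4 were the 3 members below 0 (-0.11, -0.039 and -0.012). Among the other pathway lists 0 genes were called with ApoM. The tRNA synthetases induced by ATF4 stood above 0 in 11 of 12 (median 0.098), the other synthetases in 3 of 8 (median -0.015), and the ER chaperones in 5 of 16 (median -0.025). Podocyte markers summed to 2019 to 2316 with vehicle and 2115 to 2267 with ApoM, and mitochondrial shares were 2.60% to 3.18% and 3.17% to 3.20%.

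With CYM50358 the called members split by role. The stress factors Ddit3 and Cebpb rose, and 3 enzymes and a transporter fell (Psat1, Phgdh, Aldh1l2 and Slc7a1), while 30 members did not pass. Over all 13877 genes tested 2.59% were called, 1.34% as risen and 1.25% as fallen. The median over the 36 members was -0.0070 on the log2 scale, as over all genes (-0.0017), but it was 0.11 over the transcription factors and -0.27 over the enzymes. Of the 11 enzymes, 10 were below 0, 8 of them with an unadjusted p under 0.05 (8.77% of all genes in that direction and 7.85% in the other), and 6 had all 3 treated libraries below the vehicle range (10.4% of all genes). Of the 8 transcription factors, 6 were above 0 and 2 below. An unadjusted p under 0.05 was found for 2 of those above 0, and 2 lay wholly above the vehicle range (10.5% of all genes).

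Ddit3 read 22.04, 23.1 and 21.5 with vehicle and 28.6, 37.8 and 34.2 with CYM50358. The treated libraries were all above, and replicate 2 was the highest (log2 fold change 0.56, SE 0.10, adjusted p = 0.00619); without it the adjusted p was 0.0749 (range over all alternatives 3.63e-05 to 0.206). Cebpb (chr2:167530835-167532338), a C/EBP factor that dimerises with ATF4 and CHOP, went from 9.93, 7.05 and 10.5 to 15.6, 14.9 and 18.1. The lowest treated library was well above the highest vehicle library (log2 fold change 0.77, SE 0.15, adjusted p = 0.00778), and the call held with each library left out in turn. Atf4 and Atf5 did not pass. Atf4 read 193, 213 and 182 and 205, 219.9 and 216, with overlap (log2 fold change 0.13, SE 0.066, adjusted p = 0.348). Atf5 read 105, 111 and 103 and 93.1, 118 and 116, with treated replicate 1 below all vehicle libraries and the other two above (log2 fold change 0.031, SE 0.081, adjusted p = 0.894, 95% interval -0.14 to 0.20). The effectors were above 0 in 8 of 9 with 0 called, up to 0.25 for Ppp1r15a (adjusted p = 0.121; 0.0395 without treated replicate 1, range over all alternatives 0.0395 to 0.422), and Xpot was the exception (-0.17).

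Psat1 (chr19:15882042-15924701) gave the clearest fall, from 90.7, 94.05 and 91.8 with vehicle to 63.1, 64.7 and 60.5 with CYM50358. Both groups were tight and apart, and the mean fell by 31.9% (log2 fold change -0.55, SE 0.067, adjusted p = 0.000146), and the call held without each library in turn. Phgdh (chr3:98220486-98247306), one step earlier in serine synthesis, went from 213, 237 and 216 to 184, 187 and 187. The treated libraries agreed closely and lay below the vehicle ones (log2 fold change -0.25, SE 0.061, adjusted p = 0.0338). Aldh1l2 read 51.7, 55.4 and 32.9 and 27.95, 37.1 and 26.97. Vehicle replicate 3 fell within the treated range, so the groups overlapped (log2 fold change -0.57, SE 0.15, adjusted p = 0.0466). Both calls were marginal: that of Phgdh held without vehicle replicate 1 and was lost without each of the other 5 libraries (adjusted p = 0.0515 to 0.163, range over all alternatives 0.00331 to 0.221), and that of Aldh1l2 held without vehicle replicate 3 and was lost without each of the other 5 (0.0529 to 0.207, range 0.00113 to 0.427). Psph, the last step of serine synthesis, and Asns came just short (-0.42 and -0.27, adjusted p = 0.0535 and 0.0542); Psph passed without treated replicate 3 (0.0250) and Asns without vehicle replicate 3 (0.0483). Mthfd2 did so as well without vehicle replicate 3 (0.0134 against 0.242). Cth was the 1 enzyme above 0 (0.048, 95% interval -0.35 to 0.44).

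Slc7a1 (chr5:148264220-148336714), the main importer of arginine and lysine in many cells, read 177, 173 and 175 with vehicle and 145, 142 and 133 with CYM50358. All treated libraries lay below the narrow vehicle range (log2 fold change -0.32, SE 0.061, adjusted p = 0.00751); without treated replicate 2 the adjusted p was 0.0535 (range over all alternatives 3.98e-05 to 0.150). Of the other transporters, Slc38a1 (-0.44) and Slc7a5 (-0.25) had the lowest values without passing (adjusted p = 0.0984 and 0.123), and Slc7a5 passed without treated replicate 3 (0.0492, range over all alternatives 0.0492 to 0.460). Treated replicate 2 weighed on the whole comparison: without it 2 members were called (Cebpb and Psat1), and 78 genes of all tested in place of 359. In the authors' deposited table for this comparison 2 members rose and 7 fell at an adjusted p under 0.05. The share of all genes called in that table was not counted.

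**Figure D3:**
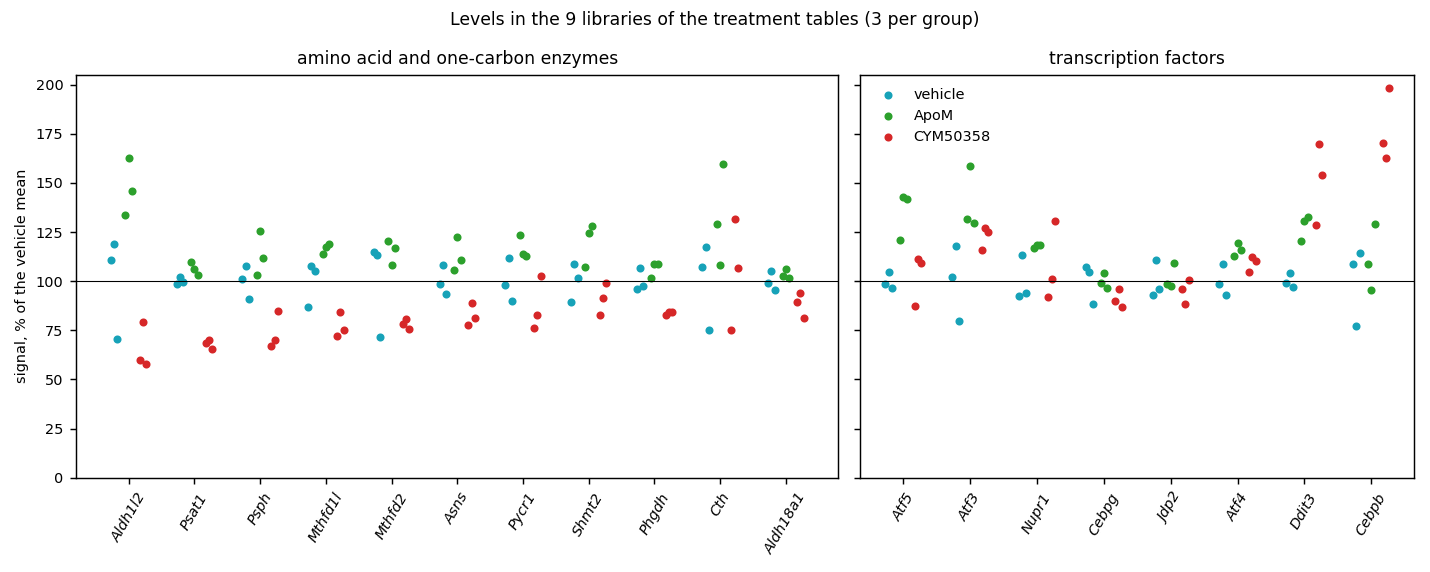
Signal of the 11 enzymes and 8 transcription factors in each of the 9 libraries of the treatment tables, as percent of the vehicle mean. For Psat1 and Phgdh the CYM50358 points lie below all vehicle points, for Ddit3 and Cebpb above them, and the ApoM points of the enzymes lie mostly above 100%.

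Around these members, few other pathway genes passed with CYM50358. Impact rose (0.27), as did Ass1, of arginine synthesis (0.49), and Vars1, the valyl-tRNA synthetase, fell (-0.32). The tRNA synthetases induced by ATF4 had 0 calls, with 8 of 12 below 0 and a median of -0.073. Of 16 ER chaperones and XBP1 targets, Hsp90b1 and Pdia6 fell (-0.30 and -0.28) and 15 were below 0. Of the 16, 8 had lower values with an unadjusted p under 0.05, and 7 lay wholly below the vehicle range. Over all genes these shares were 8.77% and 10.4%. Mitochondrially encoded genes took 3.30% to 3.46% of the signal with CYM50358, above the whole vehicle range of 2.60% to 3.18%, and the 21 podocyte markers summed to 1913 to 2021 against 2019 to 2316, with Tcf21 at 0. Endothelial markers, 7 of 9 under 0.5 in both groups, summed to 29.1 to 31.1 against 26.9 to 30.7, and leukocyte markers, 6 of 7 under 0.5, to 1.12 to 4.70 against 1.54 to 3.49. Mesangial and fibroblast markers, 5 of 10 under 0.5 in both groups and Lum at 0, summed to 6252 to 6738 with CYM50358, wholly below the 6928 to 8246 with vehicle, and parietal and tubular markers, 5 of 13 under 0.5, to 710.1 to 745 against 731 to 801. The part of these in the member differences was not tested.

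Set directly against each other, the treatments differed in more of the enzymes than passed against vehicle with either of them. ApoM cells were higher than CYM50358 cells for 11 members and lower for 1, while 2.59% of 13878 genes tested were called (1.22% as higher and 1.37% as lower with ApoM). The 11 were 8 of the 11 enzymes (Aldh1l2, Psat1, Psph, Mthfd1l, Mthfd2, Asns, Shmt2 and Phgdh), the transporters Slc7a5 and Slc7a1, and Atf5, and the 1 was Cebpb. All 11 enzymes were above 0 (median 0.45 on the log2 scale, against 0.00058 over all genes), and in 10 of them the 2 groups did not overlap, where 10% of all genes had ApoM wholly above and 9.45% wholly below. An unadjusted p under 0.05 with ApoM higher was found for 19 members, beside 8.24% of all genes. The comparison shares no vehicle library, but it uses the same treated libraries as the comparisons with vehicle. Other measures separated the same libraries: the podocyte markers summed to 2115 to 2267 with ApoM and 1913 to 2021 with CYM50358, and mitochondrial shares were 3.17% to 3.20% and 3.30% to 3.46%, and their part in the member differences was not tested.

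Aldh1l2 stood furthest apart, at 62.3, 76.0 and 68.2 with ApoM and 27.95, 37.1 and 26.97 with CYM50358. Each ApoM library was well above each CYM50358 library (log2 fold change 1.15, SE 0.10, adjusted p = 3.86e-07). Psat1 read 101, 98.1 and 95.2 against 63.1, 64.7 and 60.5. The spread within each group was small beside the gap (log2 fold change 0.64, SE 0.064, adjusted p = 2.50e-06). Psph read 26.2, 31.97 and 28.5 against 17.1, 17.8 and 21.7. CYM50358 replicate 3 was the highest of its group and still below every ApoM library (log2 fold change 0.59, SE 0.11, adjusted p = 0.00286). Mthfd1l read 31.7, 32.7 and 33.2 against 20.2, 23.6 and 20.9. The ApoM libraries were nearly alike and all higher (log2 fold change 0.58, SE 0.092, adjusted p = 0.000766). Mthfd2 read 34.8, 31.2 and 33.6 against 22.5, 23.2 and 21.7. Here both treated groups were tight (log2 fold change 0.54, SE 0.090, adjusted p = 0.00106), while vehicle, at 33.1, 32.7 and 20.6, spanned from the one to the other. Asns, with the printed promoter match, differed by 0.45, Shmt2 by 0.39 and Phgdh by 0.34.

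Slc7a5 read 123, 151 and 126 with ApoM against 78.0, 84.01 and 96.2 with CYM50358. The vehicle mean of 102 lay between the groups, which did not overlap (log2 fold change 0.62, SE 0.080, adjusted p = 6.04e-05). Slc3a2, its heavy chain, differed by 0.015 (95% interval -0.10 to 0.13). Atf5 was higher with ApoM (log2 fold change 0.40, SE 0.081, adjusted p = 0.00883), and without ApoM replicate 2 it did not pass (adjusted p = 0.0591, range over all alternatives 5.77e-06 to 0.325), nor did Shmt2 (0.0578, range 5.11e-05 to 0.253). Cebpb was lower with ApoM, at 9.95, 8.76 and 11.8 against 15.6, 14.9 and 18.1. Its groups were apart (log2 fold change -0.63, SE 0.13, adjusted p = 0.00984), though the adjusted p was 0.0533 without ApoM replicate 1 and 0.0797 without replicate 2 (range over all alternatives 0.000330 to 0.237). For Ddit3, called against vehicle with CYM50358 and not with ApoM, the difference between the treatments was not past the threshold (log2 fold change -0.22, SE 0.098, adjusted p = 0.269). Atf4 differed by 0.088 (SE 0.055, adjusted p = 0.481, 95% interval -0.026 to 0.20).

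The replicate numbers in the titles were taken to pair the ApoM and CYM50358 libraries, which the labels do not state. With the number as a block 18 members were called (17 higher and 1 lower with ApoM), among 1174 genes in place of 360. The 6 added were Aldh18a1 and Pycr1 of proline synthesis, Chac1, Gdf15, Xpot and Slc6a9, with adjusted p-values of 0.00168 to 0.0420. Without a block, Gdf15, Nupr1 and Pycr1 were called when CYM50358 replicate 3 was left out (adjusted p = 0.0129, 0.01005 and 0.0227), and Xpot without replicate 1 (0.0214). Cth, the remaining enzyme, was not called in either fit (0.32, 95% interval -0.036 to 0.67).

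**Figure D4:**
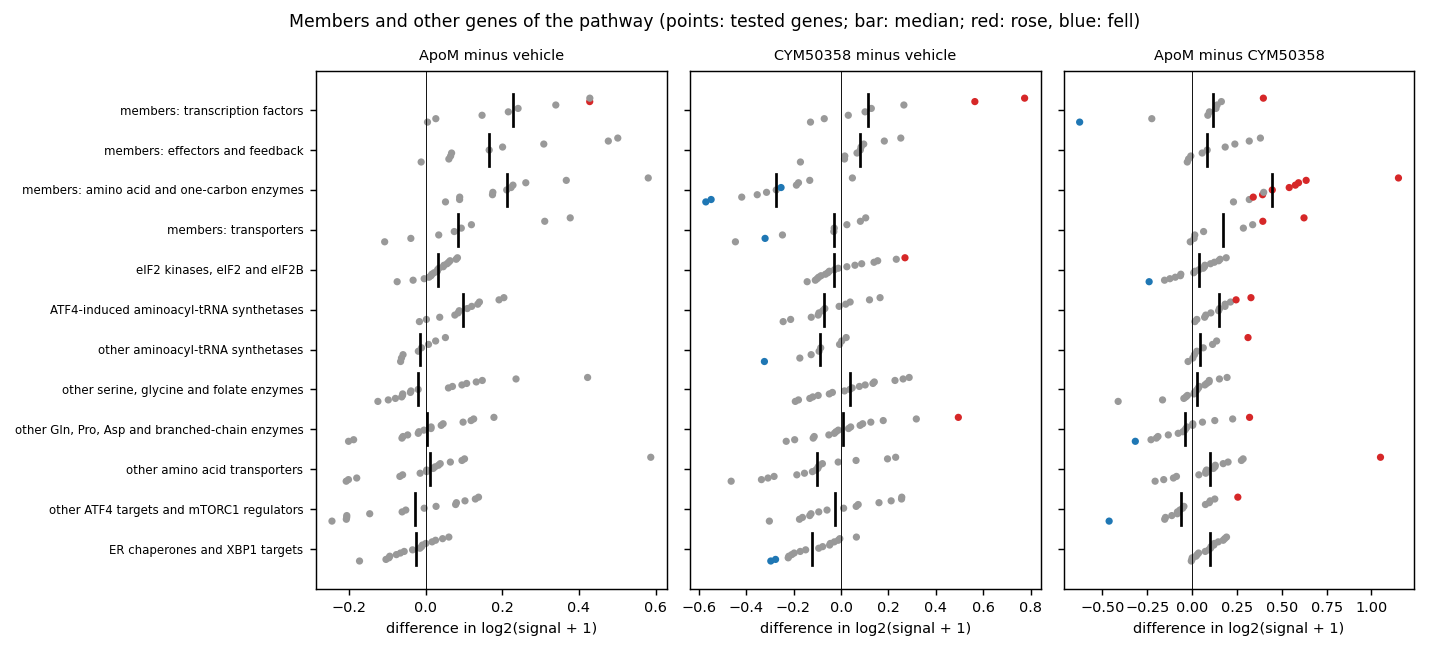
Differences of the members by role and of the other pathway lists in the 3 treatment comparisons, in log2(signal + 1); each point is a tested gene and the bar is the list's median. Among the lists the enzymes have the highest median between ApoM and CYM50358 (0.45), and the ATF4-induced tRNA synthetases are all above 0 there.

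In the lists around the members, all 12 tRNA synthetases induced by ATF4 were above 0 between ApoM and CYM50358 (median 0.15), as were 7 of the 8 other synthetases and 15 of 16 ER chaperones, and of the 12 Eprs1 and Lars1 passed (0.25 and 0.33). Of the other 8 synthetases (median 0.045) Vars1 passed (0.31). The cystine importer gene Slc7a11 was higher with ApoM by 1.05 (adjusted p = 0.0225), at group means of 7.19 and 3.19 that overlapped between libraries. The alanine transaminase gene Gpt2 and the ER stress sensor gene Atf6 were higher too (0.32 and 0.26), and Ass1, Impact and the C/EBP gene Cebpd lower (-0.32, -0.24 and -0.46). Further serine, glycine and folate enzymes gave 0 calls among 17 tested, with a median of 0.029, and ER chaperones 0 among 16, with a median of 0.098.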

How the data were processed

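RNA was extracted with an RNeasy kit and libraries were made with a Nugen mRNA-Seq kit, per the labels' protocols. Per the submitters' processing notes, the build was mm39 and the tools were edgeR, STAR, Trim Galore and FastQC. How each was run, and whether counting used strand, is not stated in these sources, so overlapping and antisense genes are uncertain. The authors deposited 3 tables with a signal per library (scaled CPM), a mean signal, log2 fold changes with standard errors, a test statistic and a signed fold change (both scores), and p-values with adjusted p-values, per the file headers. The names of several of these columns (baseMean, lfcSE, stat) are those DESeq2 writes, although edgeR is named, so the test behind the deposited p-values is uncertain. Each signal value is a whole multiple of 1 read's worth, so reads were recovered (at least 99.99% of values whole within 0.01). Both treatment tables hold the same 3 vehicle columns, which entered once.

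Groups came from sample titles. Members and lists were chosen with earlier results of these data known. The test was limma 3.58.1 (R 4.3.3) with a trend on log2(signal + 1), a pseudocount of 1, on the libraries of the 2 groups compared, for genes whose signal reached 0.5 in 3 or more libraries. P-values were adjusted over all genes tested (Benjamini-Hochberg), and 0.05 was the threshold for a call. Fold changes on this scale understate changes of low genes. The code was tested on simulated data. Alternatives were pseudocounts of 0.5 and 5, no filter, a minimum of 5, TMM rescaling, edgeR 4.0.16 and DESeq2 1.42.0 on recovered reads, a replicate block, each library left out, and chromosome medians subtracted or 1 fit over 9 libraries.

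Values per library were given for the called members with the 6 largest differences in each direction, for the 4 smallest p-values where fewer than 3 were called, and for Atf4, Atf5 and Ddit3; of each pathway list up to 3 called genes with the smallest p were named, and genes beyond this were named after their values were seen. Some genes of the pathway and marker lists are not reported here by name. Deviations of same-numbered libraries correlated at 0.371, 0.217 and 0.105 between the genotypes and at 0.132, 0.115 and 0.132 between ApoM and CYM50358. Libraries of unlike number ran from -0.298 to 0.197 and from -0.108 to -0.013. As the same-numbered values were all above 0.1, the numbers in the titles were taken to pair those samples. Between the genotypes, however, an unlike-numbered value (0.197) was above the lowest same-numbered one (0.105). Deviations within a group of 3 also sum to 0, so the correlations depend on each other and cannot establish a pairing. The labels do not state a pairing, so calls that need the block rest on this assumption.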

Additional observations from a re-analysis of the deposited data

How the results depend on the processing

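Of 43 calls of a member in a comparison, 42 kept their sign under every alternative run; the exception was Mthfd1l between the genotypes, at -0.016 with chromosome medians subtracted. The uncalled Atf3 ran from -0.82 to 0.75 between the genotypes with a library left out, the highest without wild-type replicate 1. Between the genotypes 18 to 26 members were called over all alternatives, and 21 to 24 with a library left out. All genes called were 4833 to 7048 and 4833 to 6387, against 6395. For ApoM against vehicle, 0 members were called with no filter on low signal or in 1 fit over the 9 libraries, 3 with DESeq2 on recovered reads, and 0 to 2 with a library left out; all genes called were 0, 0, 19 and 0 to 12, against 6. For CYM50358 against vehicle, 0 members were called with no filter, 4 with edgeR, 9 with DESeq2, and 2 to 7 with a library left out; all genes called were 1, 264, 763 and 78 to 474, against 359, and 596 in 1 fit over 9 libraries. Between the treatments, 1 member was called with no filter and 9 to 15 with a library left out; all genes called were 6 and 130 to 542, against 360, and 639 with DESeq2. No filter brought 24771 to 25207 genes into a treatment test in place of 13839 to 13878; the cause of the lost calls was not tested. In the treatment comparisons with vehicle the samples share only a replicate number (correlations of 0.135, -0.12 and 0.092 for ApoM, 0.094, -0.16 and -0.030 for CYM50358); with a replicate block, 3 members were called for ApoM (Aldh1l2 and Slc7a5 added) and 9 for CYM50358 (Asns, Psph and Slc38a1 added). All genes called with that block were 17 for ApoM and 532 for CYM50358, against 6 and 359. The block changed no other member's call than those given here and in the report. Counting error was at or above the spread between libraries in 9 of 180 pairs of a member and a group; whether more reads or more libraries would change the calls was not tested.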

Other observations

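The spread between libraries was widest in wild type. The coefficient of variation of a member over the 3 libraries of a group had a median of 6.42% with ApoM, 7.74% with CYM50358, 6.66% and 8.93% in the vehicle knockout sets tabulated with the wild-type and the treated cells, and 10.9% in wild type, where Atf3 reached 125%. In the authors' deposited table between the genotypes 20 members rose and 5 fell at an adjusted p under 0.05, and in their table for ApoM 1 rose and 0 fell. The shares of all genes called in those tables were not counted, so these counts have no background beside them.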
